A study of Mus musculus with 14 samples.

Results

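Colon RNA of 4 untreated Flox mice was described on its own, and these 4 arrays were all of the Flox arrays on regular water among the 14 arrays of the study. Flox mice carry a glucocorticoid receptor gene (Nr3c1) flanked by loxP sites on both alleles (GR fl/fl) and no Villin-cre, so the receptor gene is not deleted in them. The study used them as controls for GR iKO mice, in which Villin-cre, a transgene active in the intestinal epithelium, deletes the receptor. All 4 were female C57BL/6 mice of 4 to 6 months on a chow diet, given regular water over the 7 days in which other mice received 2.5% dextran sodium sulfate (DSS). RNA came from colon tissue with no sorting of cells, 1 mouse per array, and 500 ng of it was labelled with Cy3 and hybridised to a 1-colour Agilent whole mouse genome array. Each of the 4 arrays lay on a different slide, and each slide also carried a GR iKO array on regular water. Among the 4 Flox arrays alone, a difference between mice and a difference between slides cannot be told apart.

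The colon wall is lined by a single sheet of epithelium folded into crypts. Stem cells at the crypt base give rise to colonocytes, which absorb salt and water and burn butyrate, and to goblet cells, which secrete the mucus gel, with scattered enteroendocrine and tuft cells. Beneath the sheet lie a lamina propria rich in plasma cells and macrophages, layers of smooth muscle paced by interstitial cells, the neurons and glia of the enteric nervous system, and an outer mesothelium with attached fat.

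A probe was taken as detected where the scanner software marked it well above background on all 4 arrays, and as absent where it did so on none. Of 41174 probes, 25899 (62.9%) were detected, 10963 (26.6%) were absent, and 4312 (10.5%) were intermittent, above background in some mice only. On single arrays 64.9% to 71.3% of probes were well above background, no probe was saturated, and Pearson's r between arrays over the detected probes lay between 0.986 and 0.993. A spot left out for its quality has no value, and such an array was not counted for its probe: of the 25899 detected probes 25889 had a value on all 4 arrays, 8 on 3 arrays, 1 on 2 and 1 on 1. Symbols could be given to 28215 probes of 19092 genes. For each gene the probe with the highest mean signal was used, and its place among all probes is given as a percentile. Abundant genes were detected genes above the 90th percentile, moderate genes lay above the 50th, and low genes at or below it. By these limits 3252 named genes (17.0%) were abundant, 9074 (47.5%) moderate, 1821 (9.54%) low, 1516 (7.94%) intermittent and 3429 (18%) absent, so that 14147 (74.1%) were detected. The counts of each gene group below are to be read beside these shares. Levels below are log2 processed intensities relative to the 75th percentile of the same array, as mean ± SD over 4 mice (n = 4).

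**Figure D1:**
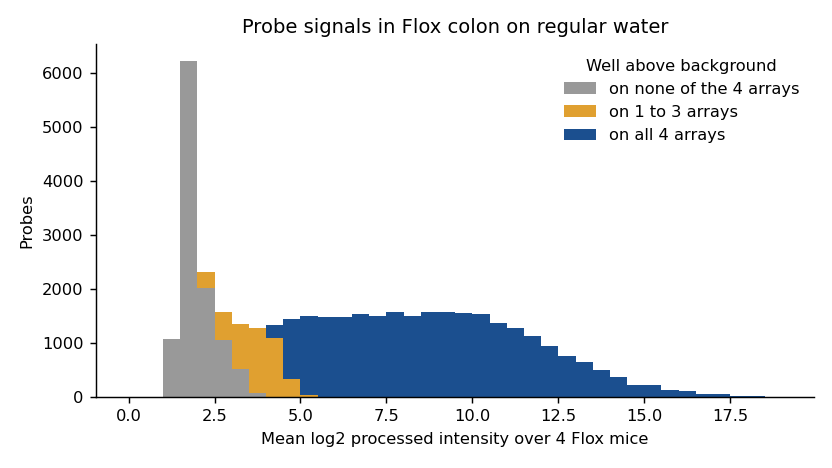
Histogram of 41174 probes by their mean log2 processed intensity over the 4 Flox mice, coloured by the number of arrays on which the probe was well above background. Absent probes form a narrow peak at the left, with a median of 1.81, and detected probes spread broadly around a median of 8.84.

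The classes met without a gap. Vps9d1 lay just above the limit of abundance at a level of 2.26 and Fam102a just below it, also at 2.26. Tert and Lmod3 lay on either side of the 50th percentile, at levels of -3.35 and -3.35. The dimmest detected gene, Ccdc33, had a level of -5.77, and the brightest absent gene, Cldn1, a level of -5.76. A signal also depends on the probe. Among 6859 genes with several probes, the brightest and the dimmest differed by a median of 2.49 log2 units, and 758 of these genes (11.1%) had a detected probe beside an absent one. A percentile is therefore a position among probe signals and not a number of transcripts, and an absent gene is one that none of its probes measured well above background.

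The brightest signals came from the epithelial lining and from the machinery of protein synthesis. Among the 20 genes with the highest mean were 10 of translation, namely Rps18, Rpl7a, Rps23, Rplp1, Rplp0, Rps20, Rpl37a, Fau, Rps12 and Rack1, with levels from 7.96 to 8.49. Lars2, which encodes the mitochondrial leucyl-tRNA synthetase, gave the highest signal of all named genes, at 9.14, 8.88, 9.17 and 9.14 in replicates 1 to 4. This value rests on 1 probe, and whether that probe also measures other transcripts was not tested. Next came Zg16, a goblet cell lectin that binds bacteria, at 8.83, 8.34, 8.95 and 8.84. The epithelial genes Krt8 (8.53 ± 0.19), a keratin of simple epithelia, Lgals4 (8.33 ± 0.18), a galectin of the gut, Lypd8 (8.38 ± 0.20), a secreted protein that keeps flagellated bacteria from the surface, and Clca1 (8.35 ± 0.20), a protein of the mucus, stood in the same range. Mptx1, a pentraxin gene, was at 8.35 ± 0.28 and Saa1, a serum amyloid A gene of colonocytes, at 8.12 ± 0.33. Cox6a1, a subunit of cytochrome c oxidase, and Myl6, a myosin light chain, completed the 20, which all had SDs of 0.33 or less.

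Epithelial genes were nearly all detected. Of 162 epithelial genes on the array, 148 (91.4%) were detected and 72 (44.4%) were abundant, beside 74.1% and 17.0% of all named genes. In bulk tissue a low signal may come from few cells of a type or from little RNA per cell, which cannot be told apart. All 20 pan-epithelial genes were detected and 17 were abundant, led by Krt8, Lgals4 and Krt19 (7.63 ± 0.13). Of 20 colonocyte genes, 19 were detected and 15 were abundant. Their highest signals were those of Lypd8, Saa1 and the adhesion molecule Ceacam1 (7.78 ± 0.13), and the water channel Aqp8 followed at 7.54 ± 0.17. The exception was the bile acid transporter subunit Slc51a, which was intermittent. All 19 goblet genes on the array were detected, 14 as abundant, with Zg16, Clca1 and the trefoil factor Tff3 (7.65 ± 0.25) in front and the gel-forming mucin Muc2 at 6.70 ± 0.39.

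Genes of the crypt and of the rarer epithelial cells stood lower. All 14 crypt stem genes were detected but 12 of them were moderate. The highest were Lrig1 (2.61 ± 0.07), Myb (2.60 ± 0.28) and Rnf43 (2.21 ± 0.16), and Lgr5, the receptor that marks the stem cells, was at -0.86 ± 0.33. All 19 cell cycle genes were detected, 7 as abundant, with Mcm6 (4.48 ± 0.23) and Mki67 (3.92 ± 0.15) highest. Among 19 enteroendocrine genes 17 were detected. The distal gut hormones Pyy (6.37 ± 0.19) and Insl5 (6.31 ± 0.25) led the group, and Gip, a hormone of the upper small intestine, was absent. No tuft gene was abundant, and of 13 the genes Chat, Il17rb and Pou2f3 were absent.

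**Figure D2:**
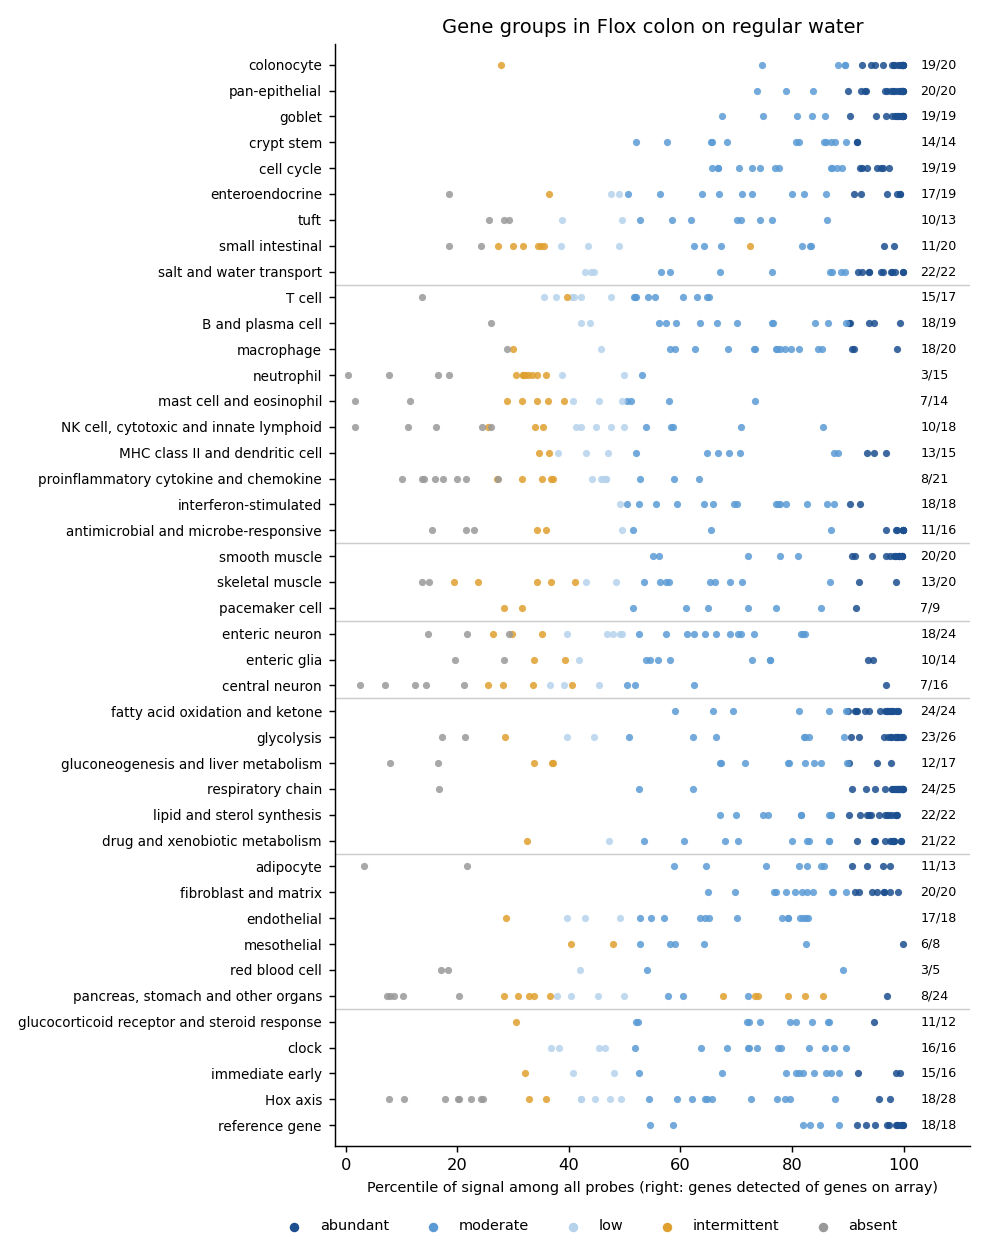
Each point is 1 gene of 42 groups, placed by the percentile of its mean signal over the 4 Flox mice among all probes and coloured by class, with the number detected of those on the array at the right. Pan-epithelial, goblet, smooth muscle and respiratory chain genes crowd the right edge, and neutrophil, cytokine and central neuron genes reach far to the left.

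Colonocyte genes, described above, were nearly all detected, as the label colon asks for. Of 20 genes typical of the small intestine 11 (55%) were detected, beside 74.1% of all named genes, and 17 with the lenient flag for any signal significantly above background. Apoa1 was absent, as was Gip. Fabp2 (4.99 ± 0.56), Lyz1 (4.03 ± 0.34) and Apob (1.17 ± 0.39), for a fatty acid binding protein, a lysozyme and apolipoprotein B, were the highest of that group. The sucrase gene Sis was low at -4.27 ± 0.62. All 22 genes of salt and water transport were detected, with Aqp8 and the sodium pump subunit Atp1b1 (5.28 ± 0.18) among the abundant ones. Hox genes record position along the body axis. Hoxb13 (4.53 ± 0.25) and Hoxa7 (3.72 ± 0.20) were the abundant ones among 28, and Hoxb9 (1.83 ± 0.22), Hoxa10 (0.62 ± 0.09) and Hoxa9 (0.51 ± 0.06) were moderate. The 8 absent members were Hoxc5, Hoxc8, Hoxc9, Hoxc10, Hoxc13, Hoxb8, Hoxd3 and Hoxd12. Xist, the RNA of the inactive X chromosome, was abundant at 4.34, 4.12, 4.31 and 4.29, and the Y-linked genes Kdm5d, Uty, Eif2s3y and Ddx3y were absent, which matched the label female in all 4 mice.

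Immune genes covered the whole scale. Of 168 on the array, 119 (70.8%) were detected and 19 (11.3%) were abundant, against 74.1% and 17.0% of all named genes. B and plasma cell genes were detected in 18 of 19 cases, headed by Jchain (6.23 ± 0.35), the joining chain of secreted IgA, Cd74 (3.39 ± 0.48), the invariant chain of MHC class II, and Sdc1 (3.14 ± 0.27), which colonic epithelium expresses too. The B cell factor Pax5 was absent. Macrophage genes were detected in 18 of 20 cases, most of them as moderate. The highest were Ly6c2 (5.67 ± 0.12), which marks monocytes, Cd14 (2.49 ± 0.15) and the complement gene C1qc (2.41 ± 0.26), and the lectin Cd209a was absent. MHC class II and dendritic cell genes were detected in 13 of 15 cases, with H2-Ab1 at 4.14 ± 0.37.

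T cell genes lay near the middle of all probes. No T cell gene was abundant among 15 detected of 17. The highest were the kinase Lck (-1.30 ± 0.37), Cd6 (-1.34 ± 0.54) and the receptor chain Cd3d (-1.61 ± 0.52), and Foxp3, the factor of regulatory T cells, was absent. In the group of natural killer, cytotoxic and innate lymphoid genes 10 of 18 were detected, beside 74.1% of all named genes. The chemokine Ccl5 was at -0.54 ± 0.67, and Ncr1, Klrk1, Eomes, Il23r and Gzmk were absent. Mast cell and eosinophil genes were detected in 7 of 14 cases, with the chymase Cma1 at -0.22 ± 0.55, and Ms4a2 and Epx were absent.

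Most genes of acute inflammation were not detected in every mouse, whereas 74.1% of all named genes were. Only 3 of 15 neutrophil genes were detected, namely the calprotectin subunit S100a9 (-2.92 ± 1.01), Mmp9 (-3.36 ± 0.48) and Mpo (-4.92 ± 0.40), while Cxcr2, Mmp8, Elane and Ngp were absent. Of 21 proinflammatory cytokines and chemokines 8 were detected, none as abundant. Cxcl10 (-1.55 ± 0.59), Ccl2 (-2.14 ± 0.25) and Il1b (-2.97 ± 0.54) were the highest, and Ifng, Nos2, Il1a, Cxcl2, Csf2, Csf3, Il6 and Il17a were absent in every mouse. With the more lenient flag of the scanner software, which asks only for a signal significantly above background, 10 neutrophil genes and 15 cytokines and chemokines were counted. Interferon-stimulated genes differed from these, since all 18 were detected, led by Oas1a (2.73 ± 0.19), Bst2 (2.33 ± 0.13) and Ifih1 (1.83 ± 0.20). Genes of antimicrobial defence ran from Lypd8, Saa1 and Saa2 (7.86 ± 0.29) at the top to Defb37, Nos2 and Defb1, which were absent.

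Smooth muscle genes were detected throughout. All 20 were detected and 15 were abundant, led by calponin Cnn1 (7.44 ± 0.30), Tagln (7.42 ± 0.23) and the myosin light chain Myl9 (7.34 ± 0.23). Of 20 skeletal muscle genes 13 (65%) were detected, beside 74.1% of all named genes. Eno3 (5.37 ± 0.25) and Tnni1 (2.68 ± 0.24) were abundant, whereas the myoglobin gene Mb and the calsequestrin gene Casq1 were absent. Among 9 genes of the pacemaker cells of the gut 7 were detected, and the chloride channel Ano1 was highest at 2.59 ± 0.24.

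Few nerve genes were abundant. Of 54, 35 (64.8%) were detected and 3 (5.56%) were abundant, beside 74.1% and 17.0% of all named genes. Enteric neuron genes were headed by the neuropeptides Gal (1.00 ± 0.25), Vip (0.93 ± 0.24) and Tac1 (0.87 ± 0.21), and 18 of 24 were detected. The acetylcholine-synthesising enzyme Chat and the receptor Ret were among those absent. Glial genes were detected in 10 of 14 cases, with the ectonucleotidase Entpd2 (3.33 ± 0.12) and Mbp (3.07 ± 0.08) abundant and Scn7a and Cdh19 absent. Genes of central neurons and oligodendrocytes were detected in 7 of 16 cases. Syn1 (4.14 ± 0.17) was the abundant one, and the transporters Slc17a7 and Slc32a1 and the factors Neurod6 and Olig2 were absent together with the myelin gene Mog.

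Metabolic genes were the most often abundant of the compartments described. Of 136, 126 (92.6%) were detected and 81 (59.6%) were abundant, beside 74.1% and 17.0% of all named genes. In the respiratory chain 24 of 25 were detected and 22 abundant, led by Cox6a1 (8.40 ± 0.24), Uqcrh (7.79 ± 0.13) and Cox4i1 (7.28 ± 0.16), and the isoform Cox4i2 was absent. All 24 genes of fatty acid oxidation and ketone use were detected, 18 as abundant. Oxct1, which activates ketone bodies, was at 5.79 ± 0.07, the electron carrier Etfb at 5.77 ± 0.14 and the dehydrogenase Acadvl at 5.41 ± 0.09.

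Glycolytic genes were detected in 23 of 26 cases, with Aldoa (7.91 ± 0.10), Ldha (6.91 ± 0.09) and Gpi1 (6.48 ± 0.12) highest and the germ cell isoforms Pgk2 and Ldhc absent. All 22 genes of lipid and sterol synthesis were detected, led by Scd2 (5.62 ± 0.25), Fasn (5.48 ± 0.49) and Hmgcs1 (5.42 ± 0.39). Drug-metabolising genes were detected in 21 of 22 cases. Gstp1 was at 6.8, 6.86, 6.82 and 6.77 and so hardly differed between mice, while the carboxylesterase Ces1g was at -0.65, 1.09, -1.49 and -1.38. Among 17 genes of gluconeogenesis and liver metabolism 12 were detected, with the glutamine synthetase Glul at 4.63 ± 0.12, and the bile acid enzymes Cyp7a1 and Cyp8b1 of the liver were absent.

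Fibroblast genes were detected throughout. All 20 fibroblast and matrix genes were detected, led by the proteoglycan Dcn (5.8 ± 0.20) and the collagens Col3a1 (4.57 ± 0.11) and Col1a2 (4.05 ± 0.09). Endothelial genes were detected in 17 of 18 cases but none was abundant, and Flt1 was highest at 1.08 ± 0.51. Of 13 fat cell genes 11 were detected, with the adipokine Cfd (4.54 ± 0.62) and the lipid carrier Fabp4 (3.95 ± 0.57) abundant, and Lep and Ucp1 were absent. Of 24 genes of the pancreas, stomach and other organs 8 were detected, and 15 without replicate 3, in which acinar genes such as Cela3b, described below, were not above background. The surfactant gene Sftpc, the casein Csn2 and the gastric genes Cblif and Pgc were among those absent. Among 16 immediate early genes 15 were detected, with Jund (6.22 ± 0.08) and Junb (5.46 ± 0.21) highest. Reference genes were all detected. They ran from Rps18 (8.49 ± 0.18) through Gapdh (5.83 ± 0.11) and Hprt (4.43 ± 0.12) to Tbp (-2.18 ± 0.04) and Polr2a (-2.72 ± 0.36), and Actb was at 1.13 ± 0.21.

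The receptor that the study deletes in other mice was moderately expressed here. Nr3c1 was at 1.05, 1.17, 1.18 and 1.38 by its brightest probe, and its 4 probes, all detected, had mean levels of 1.19, -1.38, -3.06 and -3.91. The mineralocorticoid receptor Nr3c2 was at -3.06 ± 0.42. Of 12 genes of this steroid response group 11 were detected. Sgk1 (3.42 ± 0.48), a kinase that raises sodium uptake, was the abundant one, and Klf9 (1.67 ± 0.18), Tsc22d3 (1.64 ± 0.29), Dusp1 (0.75 ± 0.20), Per1 (-0.36 ± 0.27) and Fkbp5 (-0.41 ± 0.33), all known targets of the receptor, were moderate. Hsd11b2, which inactivates corticosterone, was at 0.60 ± 0.23 and Hsd11b1, which regenerates it, at -0.09 ± 0.20. Cyp11a1, the first enzyme of steroid synthesis, was intermittent.

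Mice differed little in most genes. The median SD between mice was 0.161 log2 units over 25898 detected probes with values of at least 2 mice and fell from 0.255 below the 50th percentile to 0.121 above the 90th. For 170 detected probes that are printed at 10 places on each array, the median SD between those spots was 0.0858 and the median SD between mice 0.169, and the SD between mice was the larger for 144. The 2 SDs are unlike measures. The SD between mice is that of means over the 10 spots and also holds any difference between arrays, while the SD between spots is that of single spots of 1 array. In all, 1886 detected probes (7.28%) had a range over the 4 mice of at least 2-fold, 230 of at least 4-fold and 37 of at least 16-fold. The count of 1886 fell to 998 without replicate 2 and to 1147 without replicate 4. The 4 GR iKO mice on regular water, which lack the receptor in the epithelium and are otherwise described alike, gave a median SD of 0.156 over the same probes. In replicate 1 of those GR iKO mice Xist was at -8.11, beside 4.22, 4.36 and 4.15 in the other 3, and the Y-linked genes were at background as well.

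**Figure D3:**
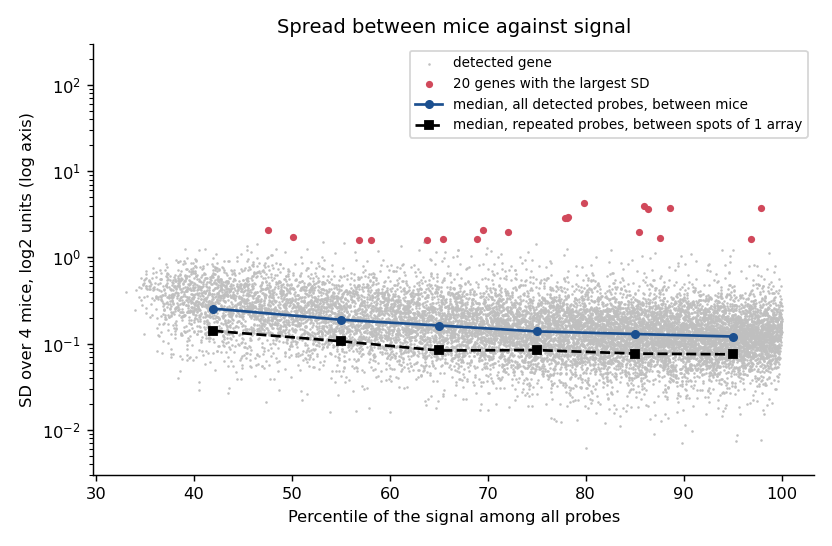
SD over the 4 Flox mice in log2 units, on a log axis, against the percentile of the signal, with 1 grey point per detected gene and the 20 genes of largest SD in red. The blue line, the median between mice over all detected probes, falls from 0.255 to 0.121. It stays above the black dashed line, the median between single spots of repeated probes on 1 array, which falls from 0.14 to 0.0750.

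The genes that differed most between mice were those of pancreatic acinar cells, which make digestive enzymes. Of the 20 genes with the largest SD, 12 were counted as genes of the exocrine pancreas. Among them were trypsins (Try5, Prss3 and 2210010C04Rik), the carboxypeptidase Cpb1, the amylase Amy1 and the lipases Cel and Pnliprp1. The chymotrypsins Ctrl and Ctrb1, the ribonuclease Rnase1 and the granule protein Gp2 were others. Amy1 is the salivary amylase gene of the mouse, a close relative of the pancreatic Amy2a5, and is counted here with the acinar genes. The SDs chose the genes, and the values are given as a description. Try5 was at 1.73, 1.15, -5.31 and 4.97 in replicates 1 to 4, an SD of 4.30. Amy1 was at 6.26, 5.04, -0.45 and 8.19, and Cpb1 at 2.89, 2.29, -3.12 and 5.91. Replicate 4 was the highest and replicate 3 the lowest for each of these 3 genes, and replicates 1 and 2 lay close together between them.

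The pattern extended to acinar genes that were not detected in every mouse. The elastase Cela3b was at 3.16, 2.18, -7.62 and 6.26, and so at the level of absent genes in replicate 3 only. Amy2a5 was at 3.23, 2.60, -5.47 and 5.54. The procarboxypeptidase Cpa1, the lipase Pnlip, the elastase Cela2a and the trypsin Prss2, named after their values were seen, were likewise above background in replicates 1, 2 and 4 alone. A group of 21 acinar genes, also put together after the values were seen, held 15 genes detected on all 4 arrays and 6 above background on 3. In 20 of the 21 replicate 4 was the highest, in 19 replicate 3 was the lowest, and in 18 both held. Of all detected genes 24.9% were highest in replicate 4 and 11.6% lowest in replicate 3. The group includes the acinar genes chosen above for their SD, so the counts partly restate that choice. Cela1, an elastase that the gut itself expresses, was the steadiest of them at 4.31, 3.84, 4.36 and 4.59. The insulin gene Ins2, of the endocrine pancreas, was at -5.51, -5.31, -4.67 and -4.60. Copies of the trypsin genes are nearly identical in sequence, so their probes may share signal and the 3 trypsins named above are not independent. Amy1 and Amy2a5 are close relatives too, and whether the Amy1 probe also measures Amy2a5 was not tested.

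GR iKO mice spread just as widely in these genes. Try5 was at 4.86, -5.33, 4.04 and 2.28 in their replicates 1 to 4, and Amy1 at 8.20, 0.30, 8.24 and 6.29, so that replicate 2 was low and replicates 1 and 3 were high. The low Flox array lay on slide 3 and the low GR iKO array on slide 2. Slide 3 also held GR iKO replicate 1, with Try5 at 4.86, and slide 2 also held Flox replicate 2, with Try5 at 1.15. Whether pancreatic tissue was taken with the colon was not tested.

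RefSeq promoters of the acinar genes are shown as a description, and whether they bear on the levels was not tested. A promoter here is the stretch of 250 bases before the gene's start and 50 after it on GRCm38.p6, and 18 of the 21 genes had an entry. Where a gene had several entries, only the first was used. The E-box CACCTG, with its reverse complement CAGGTG, is the core that the acinar factor PTF1 contacts through its helix-loop-helix subunits. At least 1 copy was found in 10 of the 18 (55.6%), beside 20.2% of all 32851 promoter entries, where a gene may have several. Related genes among the 18, such as the trypsins, are not independent. TTTCCC or GGGAAA, the TC-box that PTF1 contacts beside the E-box, was in 7 (38.9%), beside 25.2%, and TATAAA in 8 (44.4%), beside 8.32%. Both the E-box and the TC-box were in 4 of the 18, beside 4.86% of all entries. A match of letters is a description and no site of binding. In the promoters of Cel (chr2:28563354-28563653), Ctrl (chr8:105933813-105934112), Cela3b (chr4:137430471-137430770) and the trypsin Prss3 (chr6:41377564-41377863), all on the minus strand and printed 5′ to 3′, capitals mark the E-box.
Cel: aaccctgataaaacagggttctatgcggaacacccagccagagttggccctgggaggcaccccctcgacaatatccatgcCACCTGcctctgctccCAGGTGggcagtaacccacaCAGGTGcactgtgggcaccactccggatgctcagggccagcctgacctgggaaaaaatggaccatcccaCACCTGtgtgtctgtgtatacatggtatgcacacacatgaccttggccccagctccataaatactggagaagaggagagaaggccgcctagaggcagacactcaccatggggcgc
Ctrl: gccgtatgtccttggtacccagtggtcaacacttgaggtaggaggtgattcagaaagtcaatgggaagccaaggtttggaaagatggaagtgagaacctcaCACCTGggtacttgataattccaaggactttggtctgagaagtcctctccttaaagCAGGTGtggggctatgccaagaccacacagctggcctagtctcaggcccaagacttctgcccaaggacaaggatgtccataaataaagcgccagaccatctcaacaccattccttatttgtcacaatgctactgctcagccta
Cela3b: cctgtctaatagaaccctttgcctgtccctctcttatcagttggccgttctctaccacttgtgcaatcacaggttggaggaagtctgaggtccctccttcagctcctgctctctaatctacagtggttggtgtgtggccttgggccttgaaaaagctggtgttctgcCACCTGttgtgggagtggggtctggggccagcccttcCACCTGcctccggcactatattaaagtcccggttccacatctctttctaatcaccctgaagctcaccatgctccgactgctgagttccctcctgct
Prss3: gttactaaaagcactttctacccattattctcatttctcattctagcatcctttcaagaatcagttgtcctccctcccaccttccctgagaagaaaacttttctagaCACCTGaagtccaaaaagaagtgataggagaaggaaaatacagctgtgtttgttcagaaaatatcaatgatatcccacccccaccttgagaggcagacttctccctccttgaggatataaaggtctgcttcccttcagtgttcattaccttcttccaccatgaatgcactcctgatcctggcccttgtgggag
Cel held 4 copies of the E-box, the most of the 18, Ctrl and Cela3b held 2 each, and Prss3 held 1. In the entries used, Amy1, Pnliprp1 and Rnase1 held neither these E-boxes nor the other letters searched.

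**Figure D4:**
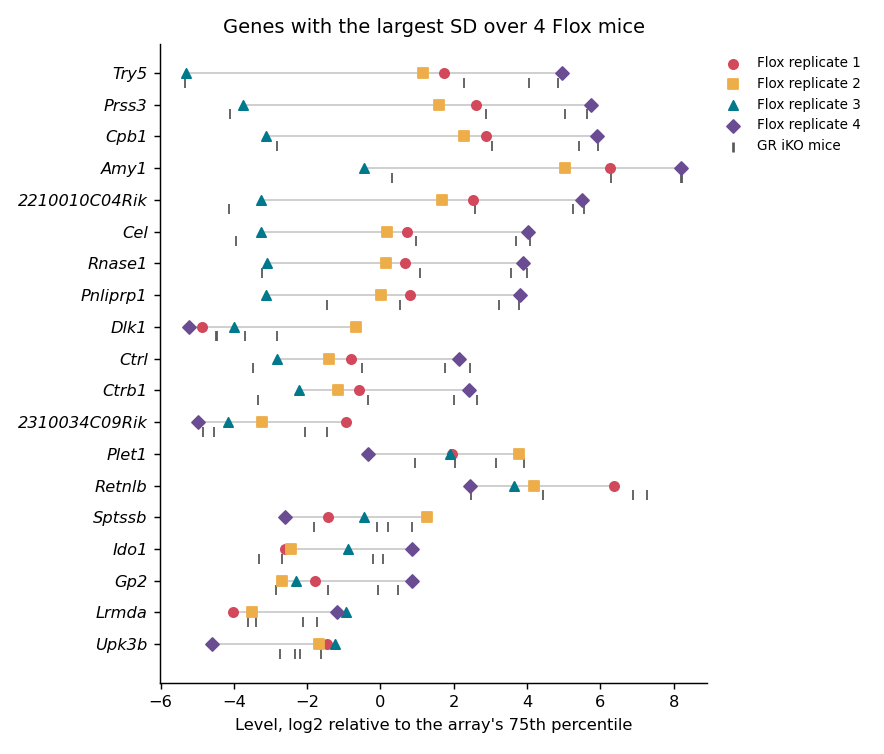
Levels (log2 relative to the array's 75th percentile) of 19 of the 20 detected genes with the largest SD, with 1 coloured symbol per Flox mouse and grey ticks for the 4 GR iKO mice below them. For the acinar genes replicate 4 sits at the right and, except for Gp2, replicate 3 at the left, and the GR iKO mice span a range of like width.

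The other 8 of the 20 most variable genes followed several orders of the mice. Retnlb, an antimicrobial protein of goblet cells, was at 6.38, 4.18, 3.65 and 2.46, a 15.2-fold range. The goblet lectin Itln1 (1.52, 0.61, -0.40 and -1.82), the ribonuclease Ang4 (6.77, 5.86, 5.24 and 4.08) and Duoxa2 (2.99, 2.36, 0.98 and 0.62), the maturation factor of an epithelial peroxide-making oxidase, had the same order and were named after their values were seen. All 4 genes were highest in replicate 1 and lowest in replicate 4, while the goblet genes Zg16 and Clca1 differed by no more than 1.52-fold over the same mice. Ido1, which degrades tryptophan, ran the other way at -2.60, -2.43, -0.89 and 0.87.

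Replicate 2 stood highest for 3 genes of the 20. Dlk1, an imprinted gene of progenitor cells, was at -4.87, -0.66, -3.99 and -5.22, Plet1 at 1.96, 3.78, 1.90 and -0.34, and Sptssb, a subunit of serine palmitoyltransferase, at -1.42, 1.26, -0.45 and -2.61. Plet1 is a surface protein of progenitor epithelia. Upk3b, a marker of mesothelium, was low in replicate 4 alone, at -1.45, -1.68, -1.24 and -4.60. The transcript 2310034C09Rik was at -0.94, -3.23, -4.17 and -4.98.

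Lrmda, a gene of melanocyte differentiation, was at -4.03, -3.52, -0.93 and -1.20, which set replicates 3 and 4 apart from replicates 1 and 2. Plac9a, Tmem254a and Cphx1, which follow each other on chromosome 14 with no protein-coding gene between them and lie 10 protein-coding genes from Lrmda, were singled out after their values were seen. Plac9a was at 2.08, 2.19, 4.39 and 4.04, Tmem254a at 1.5, 1.44, 3.50 and 3.25, and Cphx1 at -3.12, -4.95, -1.63 and -1.96. Like Lrmda, these genes were higher in replicates 3 and 4 than in replicates 1 and 2. The share of all detected genes with this order was not counted, so the shared order is a description only. In GR iKO mice, whose replicate numbers do not pair them with Flox mice, Plac9a was at 2.09, 2.47, 3.6 and 3.30.

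The spread of single genes recurred in part between the genotypes. Of the 200 detected genes with the largest SD in Flox mice, 84 (42%) were also among the 200 with the largest SD in GR iKO mice, where 200 genes are 1.41% of the 14146 detected genes, and the count was 82 without GR iKO replicate 1. Across genes, which are not independent replicates, Spearman's correlation between the SDs of the genotypes was 0.556, and dim probes have larger SDs in both. Of the 20 genes of largest SD 19 were in the GR iKO list.

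Groups of genes also moved together from mouse to mouse. For each group the deviation of its detected genes from their 4-mouse means was averaged within each mouse, as a description. The spread of these averages recurred in GR iKO mice for some groups only. Their SD there was 0.094 for T cell and 0.127 for enteroendocrine genes, beside 0.455 and 0.395 in Flox mice. For cell cycle and goblet genes it was 0.285 and 0.453 in GR iKO mice, beside 0.289 and 0.360 in Flox mice. Cell cycle genes were 0.42 log2 units above their mean in replicate 2, where all 19 had their highest value, beside 30% of all detected genes with their highest value in that mouse. Enteroendocrine genes stood out in the same mouse, by 0.59, with 16 of 17 highest there. The mean of Cck, which varied most in that group, was -1.07 and its values were -1.84, 0.37, -1.01 and -1.81.

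Lymphocyte genes ran from replicate 1, the lowest, to replicate 4, the highest. T cell genes deviated by -0.54, -0.16, 0.18 and 0.52, and 14 of 15 were highest in replicate 4, where 24.9% of all detected genes were. Cd8a, the co-receptor of cytotoxic T cells, spanned -4.52, -3.72, -3.91 and -2.62. Natural killer and innate lymphoid genes (-0.40, -0.23, 0.05 and 0.59) and B and plasma cell genes (-0.32, -0.12, 0.12 and 0.32) had the same order, as did the MHC class II group, in which 11 of 13 genes were highest in replicate 4. S100a9 of neutrophils was at -3.96, -3.54, -2.41 and -1.78.

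Muscle and lipid genes had the opposite order. Of all detected genes 25.1% were highest in replicate 1 and 31.5% lowest in replicate 4. Smooth muscle genes deviated by 0.27, 0.12, -0.10 and -0.28, with 18 of 20 highest in replicate 1 and 17 lowest in replicate 4. Their most variable member, the enteric actin Actg2, was at 5.17, 4.78, 4.28 and 4.12. Lipid and sterol synthesis genes (0.30, 0.14, -0.06 and -0.38) were highest in replicate 1 in 16 of 22 cases, and Scd1, a stearoyl-CoA desaturase, was at 3.02, 1.44, 1.45 and 0.70. The mean deviations of goblet genes were 0.40, 0.11, -0.04 and -0.47, and 12 of 19 were lowest in replicate 4, but 9 were highest in replicate 2 and 7 in replicate 1. These groups share 4 mice, so their orders are not independent of each other.

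The means of fat cell, mesothelial and red blood cell genes differed widely between mice. None of these groups passed the limit for a mouse that stood apart, given below. Fat cell genes were 0.69 above their mean in replicate 1, with 9 of 11 highest there, and Plin1, the coat protein of lipid droplets, was at -0.15, -1.72, -1.57 and -2.07. Mesothelial genes, among them the keratin Krt19 that the epithelium shares, deviated by 0.45, 0.22, 0.58 and -1.25, and Msln was at 1.69, 1.36, 1.87 and -0.76. Red blood cell genes, of which 3 were detected, were highest in replicate 4, where the globin gene Hba-a1 was at 3.15 beside 1.70, 1.67 and 1.87.

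The means of several core metabolic and structural groups hardly moved. The mean deviation differed between the highest and the lowest mouse by 0.03 log2 units for glycolysis, 0.05 for reference genes, 0.05 for fibroblast and matrix genes, 0.07 for fatty acid oxidation and 0.14 for pan-epithelial genes, beside 1.06 for T cell genes and 1.83 for mesothelial genes. The median SD of single detected genes was 0.0983 in the respiratory chain and 0.119 in glycolysis, beside 0.15 over all detected genes, 0.475 for T cell genes and 0.575 for fat cell genes. It was 0.182 for pan-epithelial, 0.151 for fibroblast and matrix and 0.149 for reference genes. Single genes of these groups were thus not clearly steadier than detected genes as a whole. The mean deviation of the respiratory chain differed by 0.166 between the highest and the lowest mouse. In the clock group Dbp, an output gene that swings over the day, had the widest spread, at 0.92, 1.87, 2.75 and 3.29. The hour at which each mouse was killed was not analysed here.

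**Figure D5:**
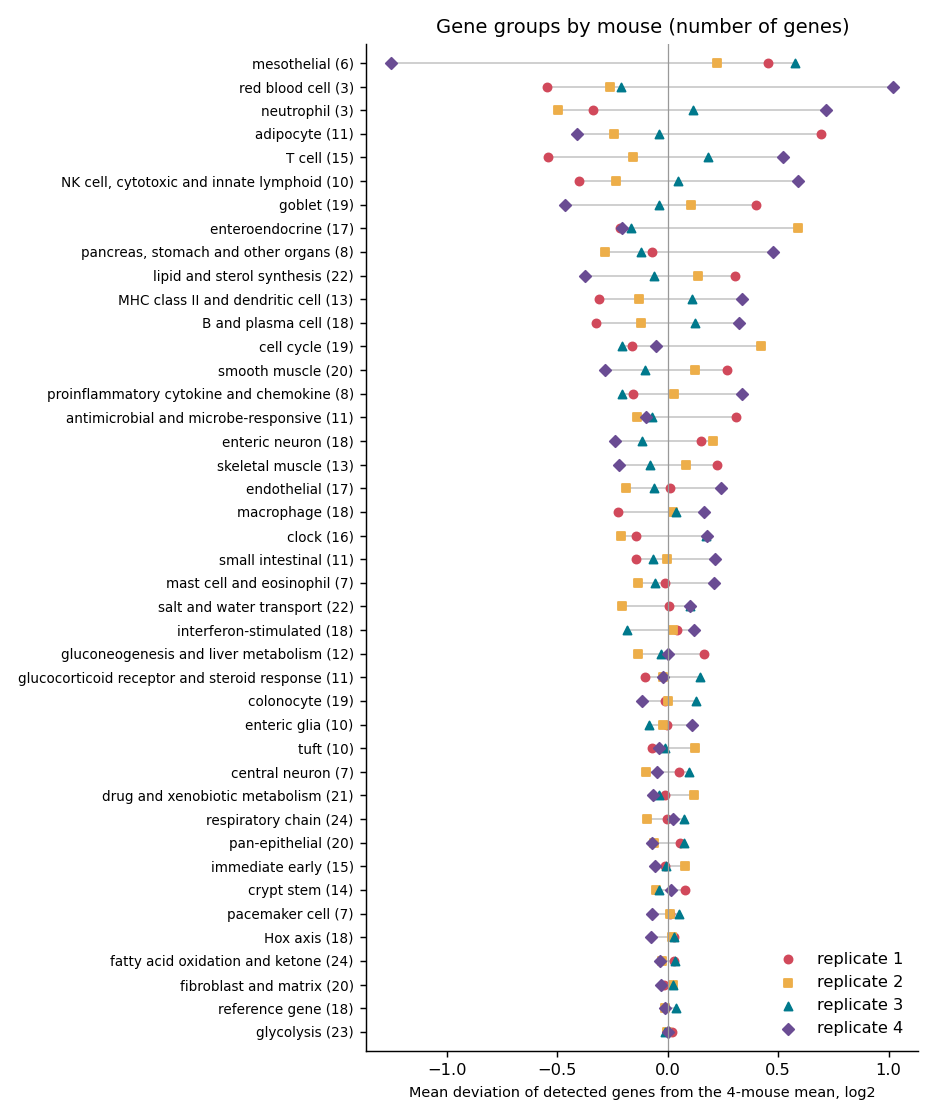
Mean deviation of the detected genes of 42 groups from their own 4-mouse means, in log2 units, with 1 symbol per mouse and the number of genes in parentheses, sorted by the range. Mesothelial, red blood cell, neutrophil and fat cell genes spread the most, and glycolysis, reference, fibroblast and fatty acid oxidation genes lie within 0.07 of each other.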

How the data were processed

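RNA of 14 mouse colons was measured on Agilent 4x44K arrays, and the 4 Flox arrays on regular water, with 4 GR iKO arrays for the spread between mice, were analysed. The authors deposited scanner output of Agilent Feature Extraction 12.0.0.7 with processed intensity, background-subtracted and not yet normalized between arrays, and a table of log2 values. Per the labels Partek 6.6 was also used. Each column of the deposited log2 table had the same median, 6.05, and correlated with the log2 processed intensity of its array at a lowest r of 0.9988; its normalization is not given in the sources used here. Here control spots and spots that the scanner software marked as uneven or outlying were left out, repeated spots were averaged on the log2 scale, and the 75th percentile over probes was subtracted on each array. Probes were named through RefSeq accessions (GRCm38.p6, names and gene order only). The normexp alternative (limma 3.58.1, R 4.3.3, offset 50) used median signals, since the files used here held no mean signal. Everything else ran in Python 3.11.15 with pandas 2.3.3. The scaling, the SD over mice and the detection classes were tested on simulated data.

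No test between groups was made. Values are levels, counts and SDs over 4 mice, and the number of arrays limits their precision. Nothing in the labels says that replicates were drawn from separate litters or days. Named were the 20 genes of highest signal, the 20 of largest SD, and in each group the 3 highest, the absent ones where 8 or fewer, and the detected one of largest SD; reference, Hox, sex-linked and steroid response genes could all be named. Aqp8, Muc2, Lgr5, Slc51a, Ang4, Itln1, Duoxa2, Ins2 and the genes said so in the text lie outside this rule or were chosen after their values were seen. Some genes that the rule would name are not reported here. The members and gene groups were chosen with earlier results of these data known. Alternatives were another scaling, background method, detection flag, probe choice and class limit, and leaving out each mouse.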

Additional observations from a re-analysis of the deposited data

Results flagged for a closer look

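For 194 groups of genes and single genes with values in the text, the 4 mice were searched for 1 that stood apart, with a gap to its nearest neighbour, as a share of the whole range, above Dixon's 95% limit. Chance gives this in about 1 of 20 sets of 4, and 13 of the 194 (6.70%) had it, 6 of them through replicate 2. The enteroendocrine group was high in replicate 2 (a mean deviation of 0.59 log2 units), and the mean of the antimicrobial group was high in replicate 1 (0.31), where Retnlb, Ang4 and Duoxa2 were at their highest, although 4 of its 11 genes were highest there and 5 in replicate 4. Other groups stood apart by little, the Hox genes low in replicate 4 (-0.0753) and the reference genes high in replicate 3 (0.0355).

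Replicate 2 was low for several bright genes, with levels of 8.88 for Lars2, 8.05 for Clca1, 8.08 for Rplp1, 7.42 for Saa2 and 3.89 for the synapsin gene Syn1. This was not particular to these genes. Each of the 20 genes of highest signal was lowest in replicate 2, beside 35.9% of all detected genes. The array of replicate 2 also had the highest 75th percentile of the 4, an intensity of 1053. Whether the scaling bears on this was not tested. Replicate 4 was low for Upk3b (-4.60) and for Sdc1 (2.73), and high for Mpo (-4.32), the myeloperoxidase of neutrophils. The complement gene C1qc was low in replicate 1 (2.02).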

How the results depend on the processing

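No paired analysis was possible because no result came from a test between groups. With the lenient flag for a signal significantly above background, absent probes numbered 4833 instead of 10963, and detected genes numbered 17 for the small intestinal, 10 for the neutrophil, 12 for the mast cell and eosinophil, 15 for the cytokine, 11 for the central neuron and 16 for the pancreas, stomach and other organ group. Asking for 3 of 4 arrays gave 5 neutrophil and 15 other organ genes, and the median probe of a gene gave 4 central neuron genes. Leaving out each mouse gave 3 to 5 neutrophil genes, the most without replicate 4, and 8 to 15 other organ genes, the most without replicate 3. With the highest 5% or 20% of probes as abundant in place of 10%, immune genes numbered 10 or 32, nerve genes 1 or 6 and stromal and other organ genes 9 or 31, and the steroid response, clock, immediate early, Hox, reference and sex-linked genes together 38 at 20% in place of 19. The median SD of 0.161 became 0.281 without scaling, 0.136 after normexp and 0.255 over all probes, and the 1886 probes with a range of at least 2-fold became 2919, 648 and 9971. Leaving out each mouse gave median SDs of 0.125 to 0.176 and counts of 998 to 1781. The cause was not tested, except that leaving out a mouse can only narrow a range and that all probes include absent ones. Of the group counts of detected genes under the alternatives, 290 stayed within 1.5 times the main count and 11 did not. The 20 genes of largest SD were again the 20 under quantile normalization, and 17 of them under normexp. With the array median and with the deposited log2 table, both chosen after seeing the data, all 20 recurred. Near background the signal sets what can be detected, so an absent gene is only not measured above it.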
